A study of Homo sapiens with 2 samples.

Results

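The genes described here encode the structure-specific nucleases that act on stalled and joined DNA in mitosis: MUS81 with its partners EME1 and EME2, the scaffold SLX4, the XPF-ERCC1 pair (genes ERCC4 and ERCC1) and GEN1. They were taken by symbol from a table of 18141 distinct symbols, and all 7 were listed, each with 1 row. RNA was measured in 2 libraries of U2OS, an established human osteosarcoma cell line. Both libraries came from asynchronously growing cells kept in 0.3 µM aphidicolin, an inhibitor of the replicative DNA polymerases, for 18 h, and polyadenylated RNA was selected. They are replicates of 1 group, and no untreated library was analysed here, so every value below is a level under aphidicolin and none is a response to it. The labels do not say whether the replicates came from separate cultures, so their spread may be technical.

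These nucleases recognise branched DNA by its shape. When replication is slowed, some loci reach mitosis with unfinished forks, and MUS81-EME1, brought in by SLX4, is known to cut such forks in early mitosis, which lets DNA synthesis resume there; this is mitotic DNA synthesis, the subject of the series. The same nucleases and GEN1 also cut Holliday junctions, the branched joints of recombination, before chromosomes separate. XPF-ERCC1 has a further role in nucleotide excision repair, where it makes the cut on the 5′ side of a damaged base.

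The values are RPKM, reads per kilobase of exonic sequence scaled by the reads of the library, and they depend on the length assigned to each gene. Unless said otherwise, levels and orders below are in deposited RPKM. Some of them change when the same reads are divided by the principal transcript, the APPRIS choice of a gene's main isoform, and those values are given beside them. ERCC1 and GEN1 have 2 principal transcripts each, and the longest is meant unless the shortest is named. That alternative to the deposited length was chosen after the lengths were seen. The library totals recovered from the table were 13227805 reads for replicate 1 and 13020149 for replicate 2. Among markers of the labelled bone-derived line, SPARC (280 RPKM), VIM (249), COL1A1 (209), RUNX2 (8.55) and ALPL (2.23) were above 1 RPKM, while COL1A2 (0.0515) and BGLAP (0.277) were near 0 and SP7 was not listed. CD3E and ALB were not listed. The blood markers PTPRC (0.145) and CD14 (0.0695), the endothelial markers VWF, PECAM1 and CDH5 (0.0624 to 0.462) and the hepatocyte marker APOA1 (0.242) were below 0.5 RPKM. Of the 5 epithelial markers, KRT18 (42.6) and KRT8 (29.8) were high, EPCAM was at 2.28, CDH1 at 0.812 and KRT5 at 0.396.

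All 7 nuclease genes reached 1 RPKM in both libraries, a level reached by 66.7% of the 17912 entries of the table. All 7 also reached 0.5 RPKM (73.9% of entries), 1 TPM (81.6%) and 1 CPM (78.1%), and 5 of the 7 reached 5 RPKM (42.8%). The median of their mean levels was 5.77 RPKM. The median was 3.53 RPKM over all entries and 8.04 RPKM over the entries that reached 1 RPKM. Only ERCC1 of the 7 lay above the latter in deposited RPKM. By the longest principal transcript MUS81 (13.1), EME1 (10.8) and EME2 (13.5) were also above 8.04 RPKM, and by the shortest so was GEN1 (11.5). The median itself was not recomputed by principal transcript. In deposited RPKM the highest nuclease gene, ERCC1, stood 6.84-fold above the lowest, EME2. By the longest principal transcript ERCC1 was 1.68-fold above EME2, and the lowest gene was ERCC4, 5.07-fold below ERCC1. By the shortest, ERCC1 was at 59.8 RPKM against 13.5 for EME2 and 4.48 for ERCC4.

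**Figure D1:**
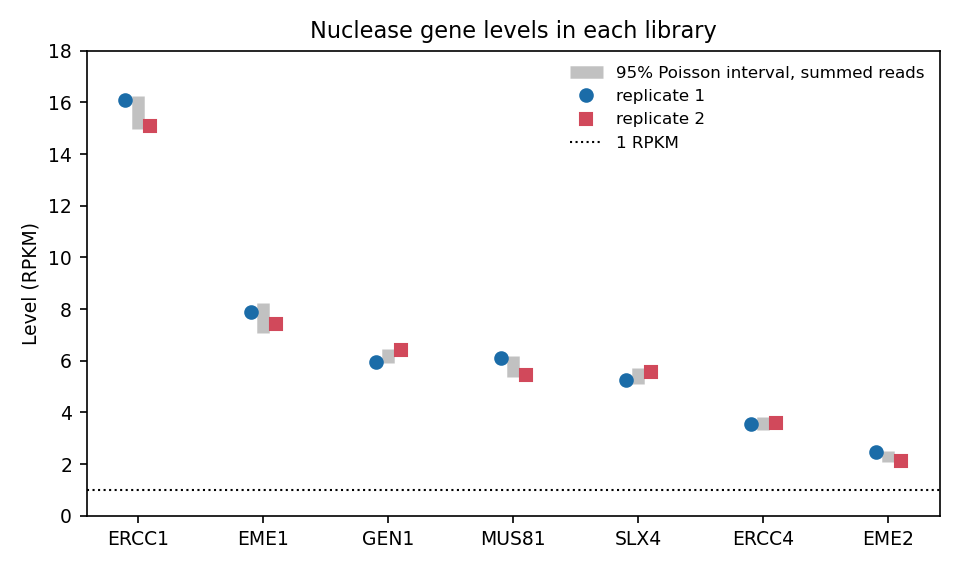
Level of each nuclease gene in RPKM (vertical axis) in replicate 1 (circles) and replicate 2 (squares), ordered by mean; grey bars are 95% Poisson intervals from the summed reads of both libraries, and the dotted line is 1 RPKM. ERCC1 lies at 16.1 and 15.1 RPKM, EME2 lowest at 2.45 and 2.10, and the values of GEN1, MUS81 and SLX4 run into each other between 5.25 and 6.43.

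MUS81 encodes the catalytic subunit of the MUS81-EME nucleases. It was at 6.11 RPKM in replicate 1 and 5.43 in replicate 2, a mean of 5.77 ± 0.479 (SD, n = 2), from 440 and 385 reads. The gene lies on chromosome 11 from 65857126 to 65867653 (GRCh38, plus strand). Its mean ranked at percentile 59.4 of all entries.

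EME1 encodes the partner with which MUS81 acts in mitosis. EME1 was at 7.87 RPKM in replicate 1 and 7.41 in replicate 2 (7.64 ± 0.323, SD, n = 2), from 343 and 318 reads. It lies on chromosome 17 from 50373220 to 50381483 on the plus strand, and its mean was at percentile 65.6. In deposited RPKM EME1 was the highest of the 3 genes for the MUS81 complexes in each library. By principal transcript it was the lowest of them, at 11.1 and 10.4 RPKM.

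EME2 encodes the alternative partner, whose complex with MUS81 has been linked to fork cutting in S phase. It was at 2.45 RPKM in replicate 1 and 2.10 in replicate 2 (2.28 ± 0.247, SD, n = 2), from 237 and 200 reads. It lies on chromosome 16 from 1773207 to 1781708 on the plus strand. In deposited RPKM EME2 was the lowest nuclease gene in both libraries and the only member below the median of all entries, at percentile 42.9. By principal transcript it was at 14.5 and 12.4 RPKM, and only ERCC1 was higher in both libraries.

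EME1 and EME2 are alternative partners of MUS81, so the ratios of their levels were computed in each library, with an exact 95% interval on the summed reads that covers counting error only. EME1 over MUS81 was 1.29 in replicate 1 and 1.37 in replicate 2 (interval 1.19 to 1.47). EME2 over MUS81 was 0.402 and 0.387 (interval 0.351 to 0.444). EME1 over EME2 was 3.21 and 3.53 (interval 2.97 to 3.79). In deposited RPKM the EME1 message thus exceeded the EME2 message in both libraries by far more than the spread between them, but this order depends on the length assigned to EME2.

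The 250 bases before the RefSeq start of these 3 genes are shown because EME1 and EME2 are alternatives for the same subunit. RefSeq and GENCODE place the starts differently: the RefSeq start lies 3307 bases inside the GENCODE span for MUS81, 9 bases inside it for EME1, and 397 bases before it for EME2. The sequences come from RefSeq on GRCh38.p14, written 5′ to 3′ on the strand of the gene, and all 7 members were matched there, with 10 windows in all. Capitals mark letters found on either strand by a search, made after the sequences were seen, for CCGGAAGT (the core bound by ETS factors), TTCCCGC (E2F), TTTGAA (the CHR element of cell cycle genes) and CCAAT.
MUS81, chr11:65860183-65860432, plus strand: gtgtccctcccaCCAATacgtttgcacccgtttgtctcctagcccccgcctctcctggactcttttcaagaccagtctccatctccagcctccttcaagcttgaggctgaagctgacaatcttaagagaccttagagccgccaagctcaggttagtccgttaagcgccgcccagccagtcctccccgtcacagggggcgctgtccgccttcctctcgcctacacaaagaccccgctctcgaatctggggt
EME1, chr17:50372979-50373228, plus strand: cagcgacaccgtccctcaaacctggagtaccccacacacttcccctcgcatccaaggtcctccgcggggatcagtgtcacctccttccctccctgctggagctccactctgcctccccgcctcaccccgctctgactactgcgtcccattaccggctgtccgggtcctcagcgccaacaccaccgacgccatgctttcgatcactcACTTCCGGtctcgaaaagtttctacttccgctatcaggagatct
EME2, chr16:1772560-1772809, plus strand: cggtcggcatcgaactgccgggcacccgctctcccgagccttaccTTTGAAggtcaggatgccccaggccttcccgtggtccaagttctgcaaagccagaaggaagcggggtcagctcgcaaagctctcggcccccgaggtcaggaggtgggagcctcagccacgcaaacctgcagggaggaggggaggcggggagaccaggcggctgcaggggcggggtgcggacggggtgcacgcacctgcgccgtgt
The EME1 window held CCGGAAGT as its reverse complement, a word found in 3.42% of 35116 windows of the same length. The EME2 window held TTTGAA, found in 13.3% of windows, and the MUS81 window held CCAAT, found in 32% of them. TTCCCGC, found in 5.52% of windows, was in none of the 10 windows of the members. CCGGAAGT and CCAAT also lay in 1 of the 2 windows of GEN1. Of the 3 windows of ERCC1, 1 held TTTGAA and another held CCAAT 3 times. EME1 had 17 CpG, EME2 20 and MUS81 13, against a median of 11 over all windows. These matches describe letters and say nothing of binding.

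SLX4 encodes the scaffold that gathers MUS81-EME1, XPF-ERCC1 and SLX1, and is also a Fanconi anaemia gene. It was at 5.25 RPKM in replicate 1 and 5.56 in replicate 2 (5.41 ± 0.223, SD, n = 2), from 597 and 623 reads. The gene lies on chromosome 16 from 3581181 to 3611598 on the minus strand, and its mean was at percentile 58.1. SLX1A and SLX1B, near-identical copies that encode the nuclease partner of SLX4, were not listed, so the SLX1 part of the complex has no value here.

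ERCC4 encodes XPF, the catalytic subunit of XPF-ERCC1. ERCC4 was at 3.55 RPKM in replicate 1 and 3.60 in replicate 2 (3.58 ± 0.0400, SD, n = 2), from 397 reads in each library, at percentile 50.2. It lies on chromosome 16 from 13920157 to 13952345 on the plus strand. Of the 7 genes it differed least between the libraries.

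ERCC1 encodes the non-catalytic, DNA-binding subunit that XPF needs. ERCC1 was at 16.1 RPKM in replicate 1 and 15.1 in replicate 2 (15.6 ± 0.695, SD, n = 2), from 1186 and 1096 reads, at percentile 81.2. It lies on chromosome 19 from 45407333 to 45478828 on the minus strand. ERCC1 over ERCC4 was 4.53 in replicate 1 and 4.19 in replicate 2, with a counting interval of 4.02 to 4.73. The reads of ERCC1, and so the width of this interval, rest on a choice of length given below. By principal transcript the ratio was 5.27 and 4.87, so ERCC1 was the higher in both libraries by either length.

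GEN1 encodes a Holliday junction resolvase of the family of XPG and FEN1 that works apart from SLX4. It was at 5.95 RPKM in replicate 1 and 6.43 in replicate 2 (6.19 ± 0.338, SD, n = 2), from 931 and 990 reads. It lies on chromosome 2 from 17753858 to 17788941 on the plus strand, and its mean was at percentile 61.0. GEN1 and MUS81, the catalytic genes of the separate resolution routes, did not differ beyond their spread in deposited RPKM: GEN1 was 1.07-fold higher in the mean, MUS81 was the higher in replicate 1 and GEN1 in replicate 2. By the longest principal transcript they were apart, with MUS81 at 13.9 and 12.4 RPKM and GEN1 at 7.14 and 7.72, a 1.77-fold difference of the means. By the shortest, GEN1 was at 11.1 and 11.9 RPKM and MUS81 was unchanged, so the difference was smaller.

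**Figure D2:**
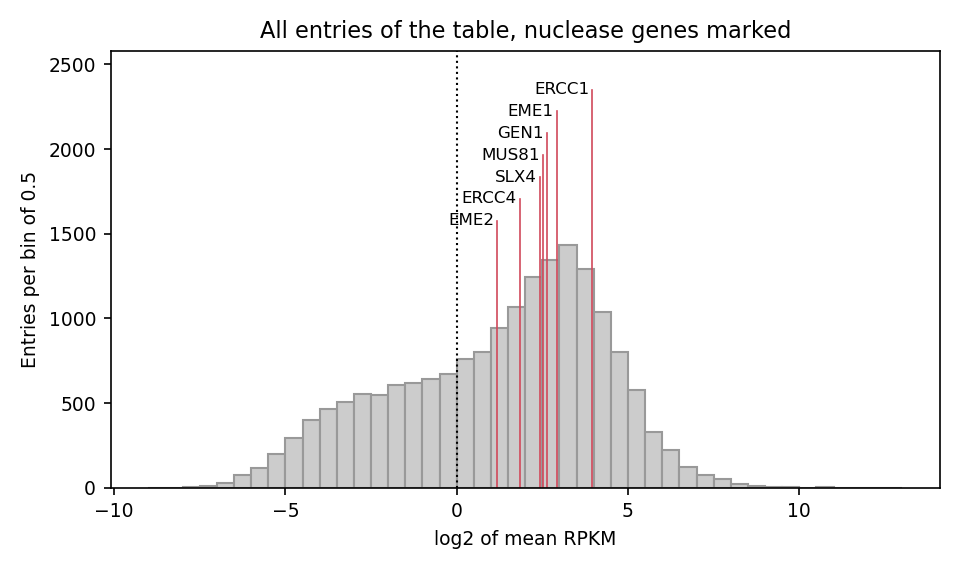
Histogram of the log2 mean RPKM of all 17912 entries in bins of 0.5 (grey bars), with a vertical line at each nuclease gene; the dotted line is 1 RPKM. ERCC1 lies to the right of the main peak, and the other members lie on its left side, down to EME2 at 2.28 RPKM.

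By mean level the order was ERCC1, EME1, GEN1, MUS81, SLX4, ERCC4, EME2. Of the 6 pairs of neighbours in that order, 4 were apart both by the values of the libraries and by the counting intervals. GEN1 and MUS81 overlapped, and so did MUS81 and SLX4, whose means differed 1.07-fold. ERCC1 over EME1 was 2.04-fold, EME1 over GEN1 1.24-fold, SLX4 over ERCC4 1.51-fold and ERCC4 over EME2 1.57-fold. With 2 libraries of 1 group no test over samples was made.

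The order rests on the exonic length by which reads were divided. That length could be recovered with the reads, since both must be whole numbers, and it was the merged length of all annotated exons or close to it: equal to that in GENCODE release 29 for EME1 (3294 bases), ERCC4 (8460) and ERCC1 (5576), 8 bases longer for SLX4 (8599), 5 longer for GEN1 (11832), 28 shorter for MUS81 (5448) and 397 longer for EME2 (7306). The RefSeq start lies 8 bases before the GENCODE start of SLX4 and 397 before that of EME2. For no other member did this distance equal the length difference. The RefSeq start lies 3 bases before the GENCODE start of ERCC4. It lies inside the span by 9 bases for EME1, 11 or 280 for GEN1, 3307 for MUS81 and 27281, 54911 or 55300 for ERCC1. For ERCC1 the smallest whole length was 2788 bases, and the multiple equal to GENCODE's was taken, which doubles its reads and leaves its RPKM as deposited. The CPM, counting intervals and library test of ERCC1 rest on that choice. With the smallest length its reads would be fewer and its intervals wider. EME2 stands out among the members in its annotation. Its principal coding transcript has 8 exons and 1234 bases, and the length behind its RPKM was 5.92 times as long; 3 of its 6 annotated transcripts are classed as retaining an intron. In GENCODE alone its merged exons were 5.60 times as long as the principal transcript, a ratio reached by 1.30% of 15553 entries, whose median was 1.37.

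Dividing the same reads by the principal transcript changed the order. EME2 became 14.5 RPKM in replicate 1 and 12.4 in replicate 2 (13.5 ± 1.46, SD, n = 2). MUS81, with a principal transcript of 2392 bases, became 13.9 and 12.4 RPKM, and EME1, with 2339 bases, became 11.1 and 10.4. EME1 over EME2 was then 0.764 in replicate 1 and 0.839 in replicate 2, and EME1 over MUS81 was 0.797 and 0.845. The direction of both ratios is therefore opposite to that in deposited RPKM. EME2 over MUS81 was 1.04 and 1.01, with a counting interval of 0.912 to 1.15 that includes equal levels. All reads were kept in this division, also any in retained introns, and where in EME2 its reads lie was not measured. ERCC1 stayed highest, at 23.4 and 22.0 RPKM, and ERCC4 became lowest, at 4.44 and 4.51, with SLX4 at 6.18 and 6.55 and GEN1 at 7.14 and 7.72.

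**Figure D3:**
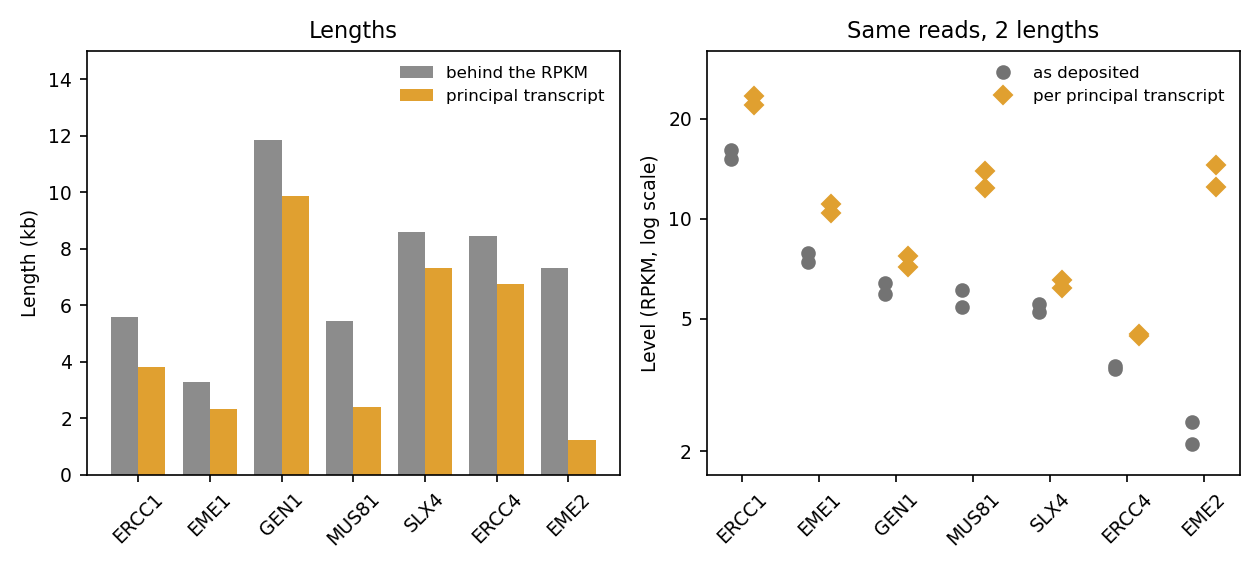
Left, the exonic length in kb behind the deposited RPKM (grey bars) and the length of the longest principal transcript (orange bars) for each gene; right, the level in RPKM on a log scale in each library as deposited (grey circles) and with the same reads divided by the principal transcript (orange diamonds). EME2 moves from lowest, at 2.45 and 2.10 RPKM, to 14.5 and 12.4, and the other genes move less.

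Every member shares exonic bases with a gene on the opposite strand, and whether the counting used strand is not given in the sources used here. Of 17300 entries, 46.8% share exonic bases with another gene on either strand. EME2 shared 2073 of its 6909 exonic bases in GENCODE with SPSB3, which encodes a substrate adaptor of a ubiquitin ligase. Those bases are 64.9% of the exons of SPSB3, which was listed at 0.220 RPKM in replicate 1 and 0.124 in replicate 2. ERCC1 shared 28.6% of its exonic bases with CD3EAP, a subunit gene of RNA polymerase I (2.71 and 2.90 RPKM). ERCC4 shared 25.7% with the antisense gene AC010401.1, which was not listed. EME1 shared 16.4% with LRRC59 (53.8 and 53.9 RPKM), whose level was several times that of EME1. MUS81 shared 759 bases, 13.9%, with the cofilin gene CFL1, one of the actin regulators, at 235 and 246 RPKM, and 11 bases with EFEMP2. SLX4 shared 3.83% with AC006111.1, not listed, and GEN1 0.905% with SMC6 (6.97 and 7.06 RPKM).

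Levels were lower in the entries that share the most. Among protein-coding entries the median was 5.00 RPKM in 8256 that share no exonic base and 5.47 RPKM in 4433 that share some, up to 10%. It was 4.98 RPKM in 1932 that share over 10% and up to 30%. In 714 that share over 30% and up to 60% it was 1.93 RPKM, and in 212 that share more 0.437 RPKM. EME2 falls just inside the group that shares over 30% and up to 60%. ERCC1, ERCC4, EME1 and MUS81 fall in the group over 10% and up to 30%, and SLX4 and GEN1 in the group that shares some, up to 10%. The part of shared exons in the level of any member was not tested.

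No member differed between the libraries beyond counting error. MUS81, EME1, EME2 and ERCC1 were higher in replicate 1, and SLX4, ERCC4 and GEN1 in replicate 2. The log2 ratios of replicate 2 over replicate 1 ran from -0.21 ± 0.14 (counting SE) for EME2 to 0.12 ± 0.07 for GEN1. An exact binomial test on recovered reads with Benjamini-Hochberg adjustment over 11812 entries called 202 entries, 1.71%, and 0 of the 7 members. The smallest adjusted p among them was 0.479, for GEN1, and 0 members had an unadjusted p under 0.05. The test compares these libraries and no conditions, and no other tool was run.

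Other genes of the pathway were taken from fixed lists, and their levels are in deposited RPKM. They were not recomputed by principal transcript, by which every member was higher, so the distance between members and lists depends on length. Of 11 listed genes for other structure-specific nucleases, 10 reached 1 RPKM, a level reached by 66.7% of all entries. The median of these 11 was 15.0 RPKM against 5.77 for the 7 members and 3.53 over all entries. The Okazaki flap nuclease gene FEN1 led at 92.7 ± 1.29 RPKM (SD, n = 2), followed by the end resection factor gene RBBP8 at 24.6 ± 0.394 and the crosslink repair nuclease gene DCLRE1B at 24.5 ± 1.64. The lowest, ERCC5, was listed at 0.206 and 0.285 RPKM, values identical to those of BIVM-ERCC5, a transcript that reads through into it, so they are not a value of ERCC5 alone.

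All 7 listed partners of SLX4 reached 1 RPKM (66.7% of all entries did), with a median of 11.6 RPKM. The checkpoint mediator gene TOPBP1 was at 32.5 ± 1.14 RPKM, the mitotic kinase gene PLK1 at 27.7 ± 1.41 and the telomere protein gene TERF2IP at 11.6 ± 0.260. SLX4IP, which encodes an SLX4-binding protein, was the lowest at 3.65 ± 0.0588. SLX4 itself, at 5.41 RPKM, was above SLX4IP and below the 6 other listed partners.

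All 10 genes of the list for mitotic control, kinases and their regulators, reached 1 RPKM (66.7% of all entries did), with a median of 22.2 RPKM. Whether each of them acts on these nucleases was not tested. The cyclin gene CCNB1 stood at 157 ± 3.97 RPKM, its kinase gene CDK1 at 68.8 ± 4.29 and AURKA at 46.0 ± 0.0552. CSNK2A1, a catalytic subunit gene of casein kinase, was the lowest at 6.26 ± 0.253, and only ERCC1 and EME1 of the nuclease genes had a higher mean. In reads CSNK2A1 was above every member, with 2375 and 2475 against 1186 and 1096 for ERCC1. Its place in RPKM therefore depends on the length assigned to it.

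Of 14 genes of mitotic DNA synthesis 13 reached 1 RPKM (66.7% of all entries did), with a median of 14.7 RPKM. POLD2, a subunit gene of polymerase delta, led at 72.6 ± 2.53, ahead of the condensin gene SMC2 at 35.7 ± 0.209 and the Fanconi gene FANCI at 34.6 ± 1.17. The lowest, the helicase gene RTEL1, was listed at 0.258 and 0.215 RPKM, and 70.2% of its exonic bases are shared with another gene. RAD52, known to be needed for mitotic DNA synthesis, was at 4.46 ± 0.524 RPKM and POLD3 at 16.6 ± 0.392; both were named outside the rule, for their known role.

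Double Holliday junctions can also be undone without a cut, by the BLM helicase with TOP3A, RMI1 and RMI2. These 4 genes were close together, with RMI1 at 12.1 ± 0.125 RPKM, BLM at 10.6 ± 0.0922, TOP3A at 9.92 ± 0.104 and RMI2 at 9.42 ± 0.0886. Each was above GEN1, MUS81, EME1, EME2, SLX4 and ERCC4 in both libraries. By principal transcript MUS81, EME1 and EME2 were higher than in deposited RPKM, and the dissolution genes were not recomputed that way.

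Of the 16 genes of nucleotide excision repair around XPF-ERCC1, 14 reached 1 RPKM (66.7% of all entries did), with a median of 12.0 RPKM. The damage-sensing partner gene RAD23B led at 56.7 ± 0.716, ahead of the single-strand binding protein gene RPA2 at 41.8 ± 0.539 and the centrin gene CETN2 at 29.8 ± 0.333. XPA, which brings XPF-ERCC1 to damage, was at 7.77 ± 0.619, between ERCC4 and ERCC1, and was also named outside the rule. ERCC5 and GTF2H4 (0.389 and 0.231 RPKM, with 79.0% of exonic bases shared) were below the level, GTF2H4 being named for that after its values were seen.

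**Figure D4:**
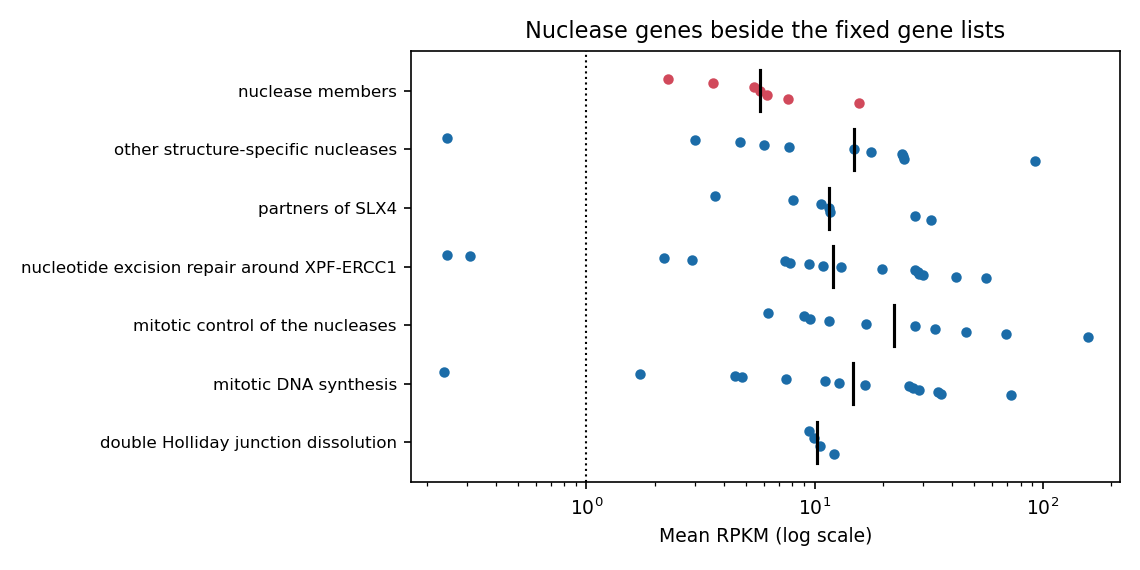
Mean RPKM on a log scale for each listed gene of the nuclease members (red) and of the other lists (blue), with the median of each list as a black bar and 1 RPKM as a dotted line; genes are spread vertically only to keep them apart. In deposited RPKM the nuclease genes run from 2.28 to 15.6 with a median of 5.77. The medians of the other lists lie between 10.2 and 22.2. By the longest principal transcript the nuclease genes run from 4.48 to 22.7 RPKM, and the other lists were not recomputed that way.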

How the data were processed

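The authors deposited 1 table of RPKM with a column per library, per the file headers. The submitters' processing notes name the tools HISAT2, featureCounts and Trim Galore, and the builds GRCh38.p13 and hg38, with no versions. The annotation and the strand setting behind the RPKM are not stated. Of 18277 rows, 194 rows of 58 symbols with several rows were left out, and symbols sharing both values were taken once, which left 17912 entries.

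Reads and exonic lengths were recovered from the RPKM: the ratio of the columns is a ratio of whole numbers within 2e-13, 979 entries with equal reads set the library totals, and the remaining whole factor was set by a whole length near GENCODE release 29 on GRCh38 (96.3% of symbols matched). Recovery and test were tried on simulated data in which every length was GENCODE's and reads varied by counting error only. In the real data 43.9% of matched symbols had the GENCODE length. The share was 36.6% before the multiple nearest to GENCODE was chosen, so part of the match comes from that choice. The simulation cannot show how recovery does at other lengths. Libraries were compared by a 2-sided exact binomial test with a trimmed mean of M values factor of 0.995 and Benjamini-Hochberg adjustment at 0.05. Intervals are exact Poisson or Clopper-Pearson at 95% and cover counting error only. Versions were pandas 2.3.3, scipy 1.17.1, numpy 2.4.6 and Python 3.11.15.

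The rule for named genes took all members, the 3 highest and the lowest listed gene of every other list, genes sharing exons with a member, and markers. Members and lists were chosen with earlier results of these data known. Alternatives covered the level, the length, the scaling, the pseudocount, a filter on low values and each library alone.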

Additional observations from a re-analysis of the deposited data

How the results depend on the processing

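All 7 members reached the level at 0.5 RPKM (73.9% of all entries), 1 CPM (78.1%) and 1 TPM (81.6%) and in each library alone, and 5 did at 5 RPKM (42.8%). The lengths of principal transcripts were tried after seeing the data. With the longest principal transcript the mean levels were 13.1 RPKM for MUS81, 10.8 for EME1, 13.5 for EME2, 6.36 for SLX4, 22.7 for ERCC1, 4.48 for ERCC4 and 7.43 for GEN1; with the shortest, ERCC1 was 59.8, GEN1 was 11.5 and the others were the same. By construction all rose, since each transcript is shorter than the merged exons. EME1 over MUS81 (1.33 in the mean of both libraries) reversed to 0.821 with either transcript length, EME2 over MUS81 (0.395) reversed to 1.03, and EME1 over EME2 (3.37) reversed to 0.801. ERCC1 over ERCC4 (4.36) became 5.07 with the longest and 13.4 with the shortest. With GENCODE's exonic length EME2 over MUS81 was 0.419. Of the 21 pairs of members, 20 kept their order without either replicate (the lowest and highest count), 16 did in CPM, which is not divided by length, and 14 and 13 did with the longest and shortest principal transcript. As TPM the levels were 26.9 for MUS81, 35.7 for EME1, 10.6 for EME2, 25.2 for SLX4, 72.8 for ERCC1, 16.7 for ERCC4 and 28.9 for GEN1, a change of scale. Among entries of at least 0.1 RPKM the percentiles of all 7 members were lower by construction, from 34.8 for EME2 to 78.6 for ERCC1. List counts stayed within 1.5 times at 0.5 and 5 RPKM and in each library. The number of entries that differed between the libraries (202) was 199 with library totals alone and 182 with no filter, with 0 members in both. No paired analysis was possible because there is 1 group. Depth limits EME2 most, at 437 reads in all.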
